A study of Lactuca sativa with 18 samples.

Results

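Midribs of the romaine lettuce (Lactuca sativa) cultivar Clemente (CL), which has a medium browning potential, were set against midribs of its low-browning parent Parris Island Cos (PC) on day 0, with 2 RNA-seq libraries of each, 4 of the 18 samples in the series. CL was selected from the progeny of PC crossed with the high-browning cultivar Tall Guzmaine (TG), whose day 0 values are given where they set a CL value beside both parents. In all 3 cultivars the heads had been trucked cold and held at 5 °C for a further day, and the excised midribs were then cut by hand into pieces. Day 0 pieces were frozen on the day of cutting and day 3 pieces after storage at 5 °C, so every group consists of cut, cold-held tissue and no uncut midribs enter the comparison. Whether separate heads lie behind the 2 samples of a group is not in the labels. The p-values set a difference against the spread between samples of a group, estimated jointly over the 12 day 0 and day 3 libraries of the 3 cultivars. That spread may in part be technical. Counts were summed per NCBI GeneID, and the members of the comparison are the CL and PC day 0 columns that the labels name.

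Enzymatic browning of cut lettuce starts in wounded midrib and leaf tissue. Wounding turns on the phenylpropanoid pathway, whose entry enzyme is phenylalanine ammonia-lyase, and the phenolic compounds it yields are oxidised by polyphenol oxidases and peroxidases to quinones that polymerise into brown pigments. The name table for these GeneIDs gives locus symbols and gene types but no descriptions, so the genes of that pathway, and the marker genes of midrib cell types, were not analysed here. Genes are named below by locus symbol, and by GeneID where the table has no entry, with the annotated type: protein-coding; long non-coding RNA (lncRNA), a transcript with no coding sequence of note; or pseudogene, a copy of a gene whose coding sequence is broken.

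The CL day 0 libraries held 53028793 and 43876047 counts and the PC day 0 libraries 38580802 and 35603537. Across genes, log2 levels correlated at a Pearson r of 0.984 between the CL libraries and 0.975 between the PC libraries. The median gene differed by 0.277 on the log2 scale between the CL libraries and by 0.307 between the PC libraries, whereas the difference between a CL and a PC library was 0.637 to 0.802. Levels below are CPM, the counts per 1000000 counts of TMM-scaled library size, and 3 counts in a day 0 library, the floor used for a gene with 0 counts, correspond to 0.0695 to 0.0862 CPM.

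A large share of the tested genes differed between the cultivars on day 0. Of 21757 genes tested, 9954 (45.8%) passed an adjusted p of 0.05, 5179 of them (23.8%) higher and 4775 (21.9%) lower in CL (edgeR quasi-likelihood test, Benjamini-Hochberg). The differences were often large: 3802 of the genes past the threshold (17.5% of those tested) were at least 2-fold higher and 3733 (17.2%) at least 2-fold lower, and 1010 (4.64%) were at least 10-fold higher and 895 (4.11%) at least 10-fold lower, a group without counts being put at the floor. Library values did not overlap between CL and PC at 15961 genes (73.4% of those tested), and among the genes past the threshold they overlapped at 10. In bulk tissue, more cells of a type and more RNA per cell cannot be told apart, for these and the following results.

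The balance between higher and lower genes depends on the scaling. TMM factors were 0.780 and 0.794 in the CL libraries and 1.12 and 1.17 in the PC libraries. Without them 3103 genes were higher and 7851 lower in CL, and the median log2 fold change of all tested genes was -0.57 in place of -0.03, a shift of 0.54. The 3103 genes were all among the 5179, the 4775 were all among the 7851, and 0 genes were past the threshold in opposite directions under the 2 scalings. Fold changes below are relative to the TMM-scaled median gene.

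**Figure D1:**
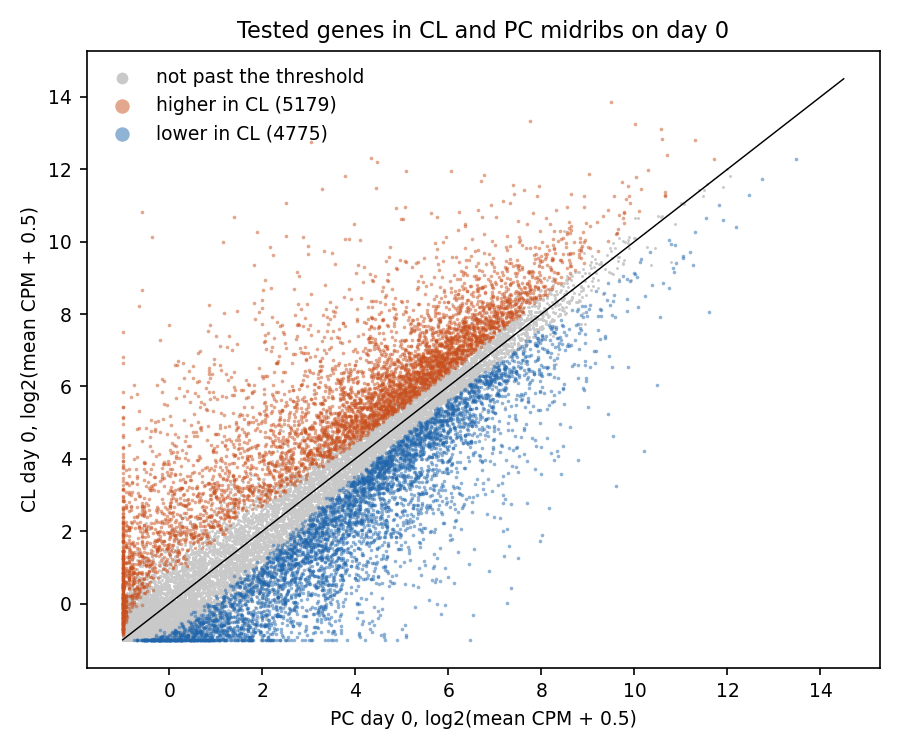
Each point is 1 of the 21757 tested genes, placed by the log2 of its mean CPM plus 0.5 in PC (x axis) and in CL (y axis) on day 0, with 2 libraries per cultivar. The 5179 genes higher in CL lie above the line of equal levels and the 4775 lower ones below it, and the points along the left and lower edges are genes with no or almost no counts in 1 cultivar.

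The 6 genes ranked first by fitted fold change in favour of CL, among those of at least 20 CPM in the higher cultivar, had 0 counts in both PC libraries. For such genes the prior count sets the fitted value, so this order is not one of measured size: LOC111881685, described below, had a ratio of means of 10869.5 on 14 PC counts, above every bound given here. LOC111919497, a protein-coding gene, stood at 209.8 and 152 CPM in CL and at 0 counts in PC, at least 2553-fold higher in CL (adjusted p = 0.00027, edgeR quasi-likelihood test, Benjamini-Hochberg, as for every adjusted p below). LOC111908135 reached 132 and 89.5 CPM in CL, at least 1564-fold higher (adjusted p = 8.75e-05). LOC111889197 reached 73.8 and 125 CPM in CL, at least 1403-fold higher (adjusted p = 0.000141). In each of these 3 protein-coding genes both CL libraries were far above PC, in which no read was counted.

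GeneID_111917374, which has no entry in the name table, had 48.96 and 65.9 CPM in CL and was at least 810.2-fold higher (adjusted p = 0.00281), a call that ended at an adjusted p of 0.0522 with no filter on low counts. The protein-coding LOC111914601 was uneven between the CL libraries, with 62.8 and 22.2 CPM, and was at least 599.5-fold higher (adjusted p = 2.76e-05). LOC111921163, also protein-coding, was even, with 42.2 and 42.8 CPM in CL (42.5 ± 0.443, SD, n = 2), and was at least 599.6-fold higher (adjusted p = 7.89e-06). The uneven library mattered for LOC111914601 only in size: its fitted log2 fold change, which depends on the prior count, was 13.93 with both libraries, 13.00 without CL replicate 1 and 14.52 without CL replicate 2.

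The high-browning parent TG did not place these genes in a common order on day 0. LOC111921163 had 64.2 and 67.5 CPM in TG, above both CL libraries. TG had 22.1 and 1.92 CPM of LOC111919497, 9.55 and 2.64 CPM of LOC111908135 and 4.72 and 6.27 CPM of LOC111914601, in each case below both CL libraries and above the 0 counts of PC. LOC111889197 was almost absent from TG, at 0.190 and 0 CPM, and GeneID_111917374 had 0 counts there, so that among the 3 cultivars on day 0 these 2 genes were abundant in CL alone.

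In the direction of PC, 4 of the 6 genes ranked first by fitted fold change were lncRNAs and 1 was a pseudogene. The pseudogene LOC111893293 had 0 counts in both CL libraries, against 97.8 and 79.1 CPM in PC (88.4 ± 13.2, SD, n = 2), and was at least 1115-fold lower in CL (adjusted p = 8.75e-05). LOC111891093, a lncRNA, had 0 counts in CL against 28.4 and 30.5 CPM in PC, at least 371-fold lower (adjusted p = 2.11e-05). The lncRNA LOC111878188 likewise had 0 counts in CL against 19.7 and 29.1 CPM in PC, at least 308-fold lower (adjusted p = 5.43e-05). In all 3 genes both PC libraries were well above the floor and CL gave no count at all.

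The lncRNAs LOC111891878 and LOC111907804 each had 2 counts in CL replicate 1 and 0 in replicate 2. LOC111891878 stood at 28.5 and 38.7 CPM in PC, a ratio of 1275 in favour of PC with an exact 95% (Clopper-Pearson) counting interval of 353 to 10536 (adjusted p = 3.51e-05). For LOC111907804 the PC values were 16.9 and 31.04 CPM, the ratio 909 and its interval 251 to 7511 (adjusted p = 2.55e-05). These intervals, like the floors, cover counting error and leave out the spread between replicates. The fitted size rests on CL replicate 1, which holds both counts: without CL replicate 1 the fitted log2 fold change, then set in part by the prior count, was -13.60 for LOC111891878 and -13.11 for LOC111907804, and without CL replicate 2 it was -9.36 and -8.88, against -10.19 and -9.70 with both.

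The sixth gene, protein-coding LOC111902135, had 0.0967 and 0 CPM in CL and 22.1 and 44.6 CPM in PC, a ratio of means of 690.4 in favour of PC (adjusted p = 0.00013). Its 4 CL counts all lay in replicate 1, and the fitted log2 fold change was -9.26 with both CL libraries, -13.59 without replicate 1 and -8.39 without replicate 2. TG shared the low level of CL in these 6 genes: LOC111893293, LOC111878188, LOC111891878 and LOC111902135 had 0 counts in both TG libraries, LOC111891093 had 0.0381 and 0 CPM and LOC111907804 0.266 and 0.0895 CPM. Each of the 6 was thus high in PC alone among the 3 cultivars on day 0.

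**Figure D2:**
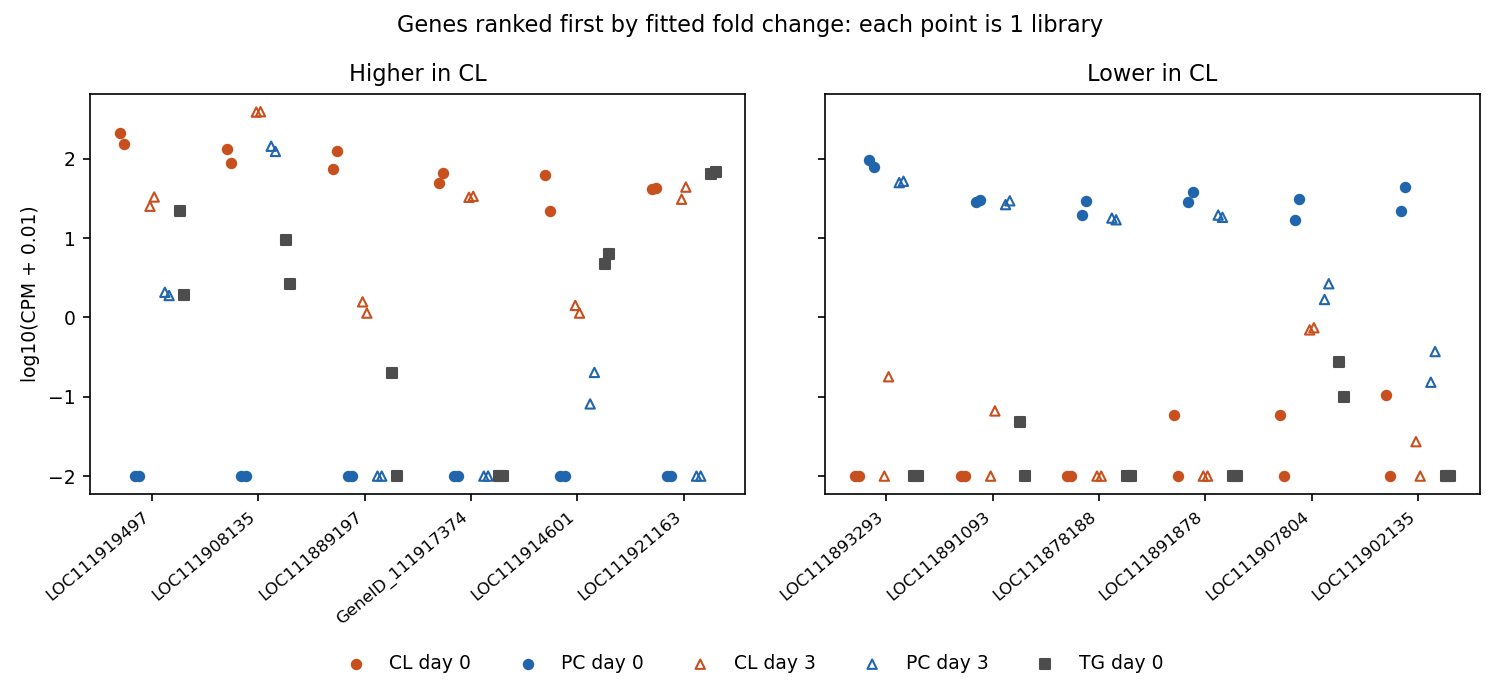
Each point is 1 library's level, log10(CPM + 0.01), for the 6 genes ranked first by fitted fold change in each direction, shown from left to right within a gene as CL day 0, PC day 0, CL day 3, PC day 3 and TG day 0, so that 0 counts plot at -2. The PC day 0 points lie at 0 counts for the 6 genes higher in CL, and the CL day 0 points at 4 counts or fewer in all for the 6 genes lower in CL.

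Among the most abundant genes that differed at least 2-fold, the differences in favour of CL reached larger sizes than those in favour of PC. LOC111903698 had 16665 and 12984 CPM in CL against 1070.1 and 368 CPM in PC, for a log2 fold change of 4.37 with an SE of 0.46 (adjusted p = 7.62e-05). LOC111921786 had 11334 and 9321 CPM in CL against 381 and 52.1 CPM in PC, for a log2 fold change of 5.57 with an SE of 0.79 (adjusted p = 0.000425). LOC111909425 had 9722 and 9796 CPM in CL against 1406 and 654 CPM in PC, for a log2 fold change of 3.24 with an SE of 0.34 (adjusted p = 7.84e-05). In these 3 protein-coding genes the CL libraries were close together and the PC libraries were not, PC replicate 1 being the higher: without it the log2 fold changes were 5.32, 7.61 and 3.88, in the order given, and for LOC111921786 the value without PC replicate 2 was 4.75.

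The other 2 protein-coding genes of this class had smaller differences. LOC111877125 stood at 9241 and 8551 CPM in CL and 1978 and 1088 CPM in PC (log2 fold change 2.54, SE 0.31, adjusted p = 0.000154). LOC111906885 stood at 8404 and 5913 CPM in CL and 2137 and 2882 CPM in PC (log2 fold change 1.51, SE 0.25, adjusted p = 0.000764). Neither gene's libraries overlapped between the cultivars, as in 73.4% of all tested genes. TG, at 14578 and 11393 CPM of LOC111903698, lay beside CL in that gene, whereas its 2297 and 2738 CPM of LOC111906885 lay beside PC.

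The 5 most abundant genes lower in CL were protein-coding too, and each differed by less than 4-fold. LOC111885899 had 4835 and 5165 CPM in CL against 12313 and 10589 CPM in PC (log2 fold change -1.20, SE 0.24, adjusted p = 0.00272), LOC111912961 had 1359.7 and 1342 CPM against 3931 and 5323 CPM (-1.78, SE 0.22, adjusted p = 0.000165), and LOC111884674 had 1529.6 and 1547 CPM against 3994 and 3672 CPM (-1.32, SE 0.24, adjusted p = 0.00135). CL and PC libraries did not overlap in these 3 genes or in the other 2 of the 5, as in 73.4% of all tested genes. The other 2 were nearer to the threshold. LOC111891035 had 2549.97 and 2435 CPM in CL against 5054 and 6315 CPM in PC (log2 fold change -1.19, adjusted p = 0.0207), and its call ended without CL replicate 1 (adjusted p = 0.0769), CL replicate 2 (0.0908) or PC replicate 2 (0.0925), and in a fit of the day 0 libraries of the 3 cultivars (0.0607). LOC111882527 had 1178 and 1273 CPM in CL against 2628 and 2404 CPM in PC (-1.04, adjusted p = 0.0299), and its call ended without any 1 of the 4 libraries, at adjusted p-values of 0.0671 to 0.122, and in the fit of the day 0 libraries (0.0918).

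Abundance and direction went together over all genes. To keep the grouping apart from the day 0 values, genes were classed by their mean CPM over the 6 day 3 libraries. Of the 96 tested genes at 1000 CPM or more, 65 were higher and 11 lower in CL on day 0, with a median log2 fold change of 1.48. Among the 1970 genes at 100 to 1000 CPM, 1068 were higher and 247 lower (median 0.64), and among the 7978 at 10 to 100 CPM, 2502 were higher and 2010 lower (median 0.09). The split turned below that: 1067 higher and 1690 lower of 5941 genes at 1 to 10 CPM (median -0.33), and 477 higher and 817 lower of 5772 genes under 1 CPM (median -0.50, or -0.35 with groups without counts put at the floor).

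These splits move with the scaling as the total does. Without TMM factors the genes at 1000 CPM or more divided into 54 higher and 18 lower and those at 100 to 1000 CPM into 613 and 535, while the 3 lower classes had 1353 higher and 3702 lower, 728 and 2491, and 355 and 1105. The order of the classes did not depend on it: in both scalings the share of called genes that were higher in CL fell with each step down in level as far as the class of 1 to 10 CPM. The genes at 1000 CPM or more took up 17.1% and 16.0% of the counts of the CL day 0 libraries and 13.4% and 12.8% of those of the PC day 0 libraries. The part of such differences in library make-up in the counts of higher and lower genes was not tested.

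Long non-coding RNAs and pseudogenes were called higher in CL less often than tested genes as a whole, and called lower about as often. Of 1184 lncRNAs tested, 129 (10.9%) were higher and 239 (20.2%) lower in CL, with a median log2 fold change of -0.55 (-0.49 with groups without counts put at the floor). Of 318 pseudogenes, 42 (13.2%) were higher and 69 (21.7%) lower (median -0.62, or -0.58 with the floor). The 19259 protein-coding genes had 4884 (25.4%) higher and 4311 (22.4%) lower and a median of 0. All tested genes together had 23.8% higher and 21.9% lower and a median of -0.03. The median lncRNA stood at 1.05 CPM over the libraries and the median protein-coding gene at 11.4 CPM, so annotated type and abundance are not separate in these figures. The lncRNA counts depended on single libraries: without PC replicate 2 they were 81 higher and 118 lower, and without CL replicate 2 141 were lower. For pseudogenes the counts without PC replicate 2 were 24 higher and 39 lower. Without TMM factors 84 lncRNAs were higher and 383 lower, and 111 pseudogenes were lower.

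In counts rather than genes, lncRNAs took up 0.585% and 0.470% of the CL day 0 libraries and 0.852% and 0.967% of the PC day 0 libraries, without overlap. Part of that gap lay in 2 loci. LOC111910599 had 364 and 313 CPM in CL against 797 and 1026 CPM in PC (log2 fold change -1.43, SE 0.22, adjusted p = 0.000559). LOC111899827, the most abundant lncRNA, had 1119 and 830.2 CPM in CL against 1789 and 1739 CPM in PC (-0.86, SE 0.30, adjusted p = 0.0369). The call for LOC111899827 ended without CL replicate 2 (adjusted p = 0.200) and without either PC library (0.0766 and 0.0838), as well as in a fit of the CL and PC day 0 groups alone (0.0546) and of the day 0 libraries of the 3 cultivars (0.0809), while that for LOC111910599 held without any 1 of the 4. Ribosomal RNA, which library preparation usually aims to leave out, took up 0.434% and 0.562% of the counts in CL and 0.715% and 0.706% in PC on day 0, and its part in the lncRNA difference was not tested.

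**Figure D3:**
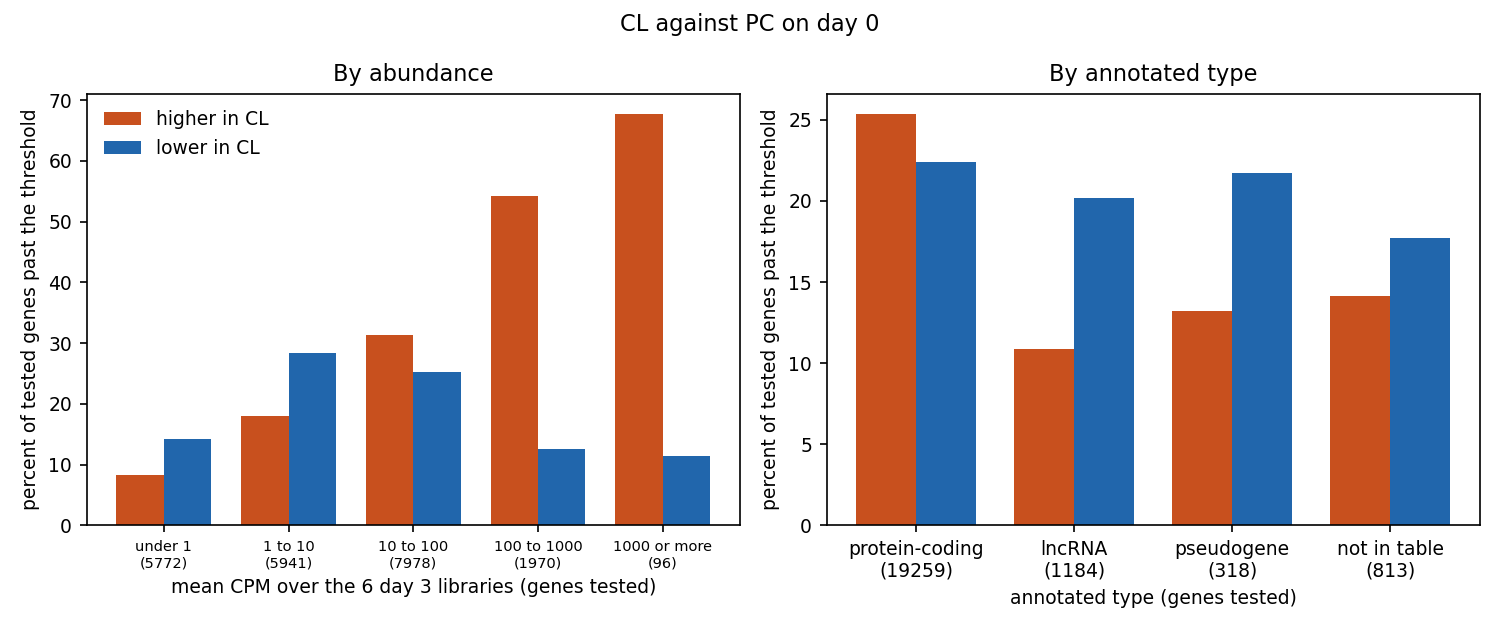
Bars give the percentage of tested genes past an adjusted p of 0.05 that were higher (left bar of each pair) or lower (right bar) in CL than in PC on day 0, by mean CPM over the day 3 libraries in the left panel and by annotated type in the right panel, with the number of genes tested in brackets. Higher genes outnumber lower ones at 10 CPM and above and among protein-coding genes, and lower ones outnumber higher ones in the other classes shown.

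Some genes were detected in 1 cultivar and gave no count in the other. Over the 46150 GeneIDs, 102 (0.221%) had 0 counts in both PC day 0 libraries and at least 1 CPM in both CL day 0 libraries, and 78 (0.169%) had 0 counts in CL and at least 1 CPM in PC. The 102 genes of CL comprised 76 protein-coding genes, 8 lncRNAs, 3 pseudogenes and 15 GeneIDs without an entry, and 22 of them averaged 10 CPM or more. The 78 genes of PC comprised 49 protein-coding genes, 16 lncRNAs, 1 pseudogene and 12 GeneIDs without an entry, and 9 averaged 10 CPM or more. Why a gene had 0 counts was not tested.

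The day 3 libraries had no part in this choice. Of the 102 genes at 0 in PC on day 0, 48 also had 0 counts in both PC day 3 libraries. The other 54 had at least 1 count there, and 20 stood at 1 CPM or more in both. Of the 78 genes at 0 in CL on day 0, 41 also had 0 counts in both CL day 3 libraries. The other 37 had at least 1 count there, and 2 stood at 1 CPM or more in both. The cultivar that had the gene on day 0 did not always keep it. CL stood at 1 CPM or more in both day 3 libraries at 68 of the 102, and PC at 32 of the 78. A 0 on day 3 may thus belong to a gene that was low in both cultivars. LOC111908135, 1 of the 20, had 0 counts in PC on day 0 but 144 and 124 CPM in PC on day 3, beside 389 and 393 CPM in CL. LOC111898308 had 3.55 and 2.10 CPM in CL and 0 counts in PC on day 0, and 89.98 and 81.8 CPM in CL and 57.2 and 55.1 CPM in PC on day 3. LOC111916745 and LOC111912976, both protein-coding, were the 2 of the 78: LOC111916745 had 0 counts in CL against 1.39 and 2.17 CPM in PC on day 0, and 4.98 and 5.01 CPM in CL against 5.60 and 7.62 CPM in PC on day 3. LOC111912976 had 0 counts in CL against 3.06 and 5.54 CPM in PC on day 0, and 1.24 and 2.93 CPM in CL against 1.36 and 2.27 CPM in PC on day 3. LOC111898308, LOC111916745 and LOC111912976 were chosen after their values were seen.

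TG stood differently beside the 2 sets. Of the 102 genes found in CL and not in PC, 41 had at least 1 CPM in both TG day 0 libraries and 13 had 0 counts in both. Of the 78 genes found in PC and not in CL, 5 had at least 1 CPM in both TG libraries and 33 had 0 counts in both. LOC111890099, a lncRNA chosen for its absence from both parents after its values were seen, had 19.2 and 19.3 CPM in CL on day 0 and 10.03 and 10.3 CPM on day 3, with 0 counts in the PC and TG libraries of both days. It was at least 271-fold higher in CL than in PC on day 0 (adjusted p = 4.95e-05). GeneID_111876579, chosen in the same way for PC, had 0 counts in the CL libraries of both days and in the TG day 0 libraries, against 10.8 and 12.1 CPM in PC on day 0 and 19.1 and 23.7 CPM on day 3.

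The comparison of CL with PC on day 3 sets other libraries against each other but takes its spread from the same fit of 12 libraries. A gene not called on day 3 is thus not shown to have lost its day 0 difference. The day 3 comparison gave 199 genes past the threshold (0.915% of those tested), 112 higher (0.515%) and 87 lower (0.4%) in CL, although 2159 genes had an unadjusted p under 0.05, against 11521 on day 0. Over all tested genes the median size of the log2 fold change was 0.97 on day 0 and 0.30 on day 3, with groups without counts put at the floor. The day 3 number depends strongly on the fit. A fit of the day 3 CL and PC libraries on their own, which takes its spread from those 4, gave 2128 genes, DESeq2 gave 677, and leaving out any 1 of the 4 libraries gave 60 to 75.

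The genes that differed on day 0 kept their direction on day 3 more often than not, at a much smaller size. The 5179 genes higher in CL had a median log2 fold change of 1.59 on day 0 and 0.19 on day 3, with groups without counts put at the floor, and 71.8% had a positive fold change on day 3. The 4775 lower genes had medians of -1.77 and -0.19, and 69.4% had a negative fold change on day 3. Across all tested genes the fitted day 0 and day 3 log2 fold changes, without the floor, correlated at a Pearson r of 0.43 and a Spearman rho of 0.37. A group had 0 counts at 1409 genes on day 0 and 952 on day 3, where the fitted value depends on the prior count. Both correlations are a description across genes, which share libraries and are not independent replicates. A test of the difference itself called 5188 genes (23.8%), which included 2819 of those higher and 2258 of those lower in CL on day 0. In 2819 and 2255 of these the day 3 difference was smaller than the day 0 difference or opposite to it. The genes were called on their day 0 difference, which is also a term of this test. That choice favours a smaller day 3 value in advance, here and in the medians of the called genes above. Single libraries move the 5188 genes: leaving out CL day 3 replicate 1 or 2 gave 2892 or 2330, leaving out PC day 3 replicate 1 or 2 gave 2639 or 3398, and leaving out PC day 0 replicate 2 gave 3235.

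Of the 5 most abundant genes higher in CL on day 0, 4 had a smaller difference on day 3 by that test. These genes too were chosen by their day 0 values. LOC111921786 had 5929 and 7479 CPM in CL and 5044 and 5568 CPM in PC on day 3, so that the PC level had come close to that of CL, and the log2 fold change differed between the days by 5.24 (SE 0.97, adjusted p = 0.00567). LOC111903698 had 4831 and 4935 CPM in CL and 2598 and 2461 CPM in PC on day 3 (difference between days 3.42, SE 0.58, adjusted p = 0.00354). LOC111877125 stood lower in both cultivars on day 3 than on day 0, at 806 and 983 CPM in CL and 509.99 and 648 CPM in PC (difference between days 1.91, SE 0.42, adjusted p = 0.0101). The difference between days was also past the threshold for LOC111909425 (adjusted p = 0.00418) and not for LOC111906885 (adjusted p = 0.136). Of the 12 genes ranked first by fitted fold change on day 0, it was past the threshold for LOC111919497, LOC111908135, LOC111914601 and LOC111907804. The test could not judge LOC111889197, GeneID_111917374, LOC111921163 and LOC111878188, in which 1 cultivar had 0 counts on both days. LOC111889197 had 1.56 and 1.13 CPM in CL on day 3, against 73.8 and 125 CPM on day 0, and its difference had an SE of 23699.

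LOC111893813 and LOC111887882, protein-coding genes that earlier work on these data had named for the comparison of CL with PC, were lower in CL on day 0 and differed from each other in TG and on day 3. Neither passed the threshold between CL and PC on day 3 (adjusted p = 0.755 for LOC111893813 and 0.0903 for LOC111887882). LOC111893813 had 0.483 and 0.115 CPM in CL against 38.7 and 144 CPM in PC on day 0 (log2 fold change -8.20, adjusted p = 9.11e-05, SE 0.86), and 7.23 and 4.39 CPM in CL against 9.20 and 9.79 CPM in PC on day 3. TG, at 0.0761 and 0.313 CPM on day 0, lay beside CL. Its replicates were uneven in both cultivars on day 0, and the value ran from -9.61 without CL replicate 1 to -6.97 without PC replicate 2, with -8.87 without PC replicate 1 and -7.56 without CL replicate 2. LOC111887882 had 0.362 and 0.431 CPM in CL against 20.8 and 25.6 CPM in PC on day 0 (-5.86, SE 1.08, adjusted p = 0.00191) and 0.344 and 0.169 against 8.75 and 6.22 CPM on day 3, and TG had 10.5 and 7.74 CPM of it on day 0, so CL stood below both parents.

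**Figure D4:**
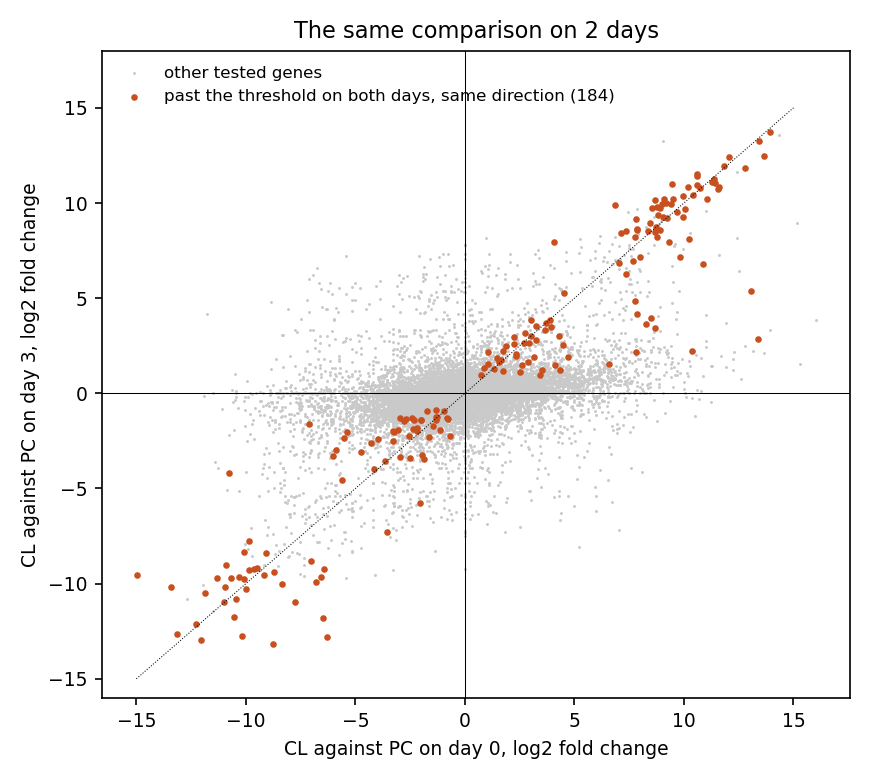
Each point is 1 tested gene, placed by its fitted log2 fold change of CL against PC on day 0 (x axis) and on day 3 (y axis), with the 184 genes past the threshold in the same direction on both days in colour and a dotted line at equal values. Most points lie in a flat band near 0 on the day 3 axis, and many of the 184 lie along the dotted line. Where a group had 0 counts the fitted value depends on the prior count.

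A small set of genes differed on both days. Of the 199 genes called on day 3, 184 (92.5% of them, 1.85% of the day 0 calls and 0.846% of the genes tested) were called in the same direction on day 0, 105 higher (0.483%) and 79 lower (0.363%) in CL, 3 were called in opposite directions and 12 were not called on day 0. The 184 had a median absolute log2 fold change of 4.21 on day 0 and 3.89 on day 3 with groups without counts put at the floor, and the difference between days was past the threshold for 35 of them. A gene at 0 counts in 1 cultivar on both days could hardly pass that test. The others of the 184 are therefore not shown to differ equally on both days. By type they were 114 protein-coding genes, 33 lncRNAs, 7 pseudogenes and 30 GeneIDs without an entry. LncRNAs were thus 33 of 184, where they are 1184 of 21757 tested genes. This was not particular to them. GeneIDs without an entry were 30 of 184 against 813 of 21757, and pseudogenes 7 of 184 against 318 of 21757. The number changes with the day 3 fit, to 533 with DESeq2 and to between 58 and 71 without any 1 of the 4 day 3 libraries.

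The most abundant of the 184 was LOC111879914, a protein-coding gene. It had 5755 and 8136 CPM in CL against 14.3 and 1.16 CPM in PC on day 0, and 3379 and 3621 CPM in CL against 29.6 and 19.01 CPM in PC on day 3. The lowest of the 4 CL libraries thus lay more than 100-fold above the highest of the 4 PC libraries. The log2 fold change was 9.81 (SE 1.10, adjusted p = 0.000128) on day 0 and 7.17 (SE 0.98, adjusted p = 0.00904) on day 3. The PC day 0 libraries differ more than 10-fold, and the day 0 value was 12.53 without PC replicate 1 and 8.92 without PC replicate 2. TG, with 4646 and 3979 CPM on day 0, lay close to CL.

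Other abundant protein-coding genes of this set, also chosen by level among the 184 after the values were seen, kept their direction with a smaller gap. LOC111878774 had 1545 and 1318 CPM in CL against 15.9 and 14.3 CPM in PC on day 0 and 197 and 213 against 77.8 and 60.5 CPM on day 3, and LOC111919006 had 1245 and 1137 against 126 and 91.6 CPM on day 0 and 188 and 211 against 101 and 104 CPM on day 3. In both genes the day 3 CL libraries stood below the day 0 CL libraries and above the PC libraries of either day. LOC111881598 instead kept a modest gap, 1802 and 1879.5 CPM in CL against 1154 and 1027 CPM in PC on day 0 and 2332 and 2538 against 1256 and 1272 CPM on day 3, and its day 0 call (log2 fold change 0.76, adjusted p = 0.00718) ended without TMM factors (0.22, adjusted p = 0.337), in a fit of the CL and PC day 0 groups alone (0.0669) and in a fit of the day 0 libraries of the 3 cultivars (0.0544).

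The most abundant of the genes lower in CL on both days, LOC111878038, had the smallest day 0 difference of those named here and its day 0 call was not firm. It had 175 and 126 CPM in CL against 255 and 234 CPM in PC on day 0 (log2 fold change -0.70, adjusted p = 0.0355, SE 0.24), and 23.7 and 22.7 CPM in CL against 133 and 89.4 CPM in PC on day 3 (-2.26, SE 0.25, adjusted p = 0.00188). The day 0 call ended without CL replicate 2 (adjusted p = 0.214), without PC replicate 1 (0.0949) or 2 (0.0665), in a fit of the CL and PC day 0 groups alone (0.0699) and in a fit of the day 0 libraries of the 3 cultivars (0.0798). LOC111885663 had 33.3 and 41.1 CPM in CL against 69.5 and 133 CPM in PC on day 0 (log2 fold change -1.45, adjusted p = 0.00324, SE 0.30) and 46.6 and 59.4 against 153 and 189.99 CPM on day 3, with TG at 169 and 121 CPM on day 0.

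The other 3 genes named among those lower in CL on both days kept their day 0 calls under the alternatives run. LOC111919467 had 53.9 and 63.5 CPM in CL against 207 and 381 CPM in PC on day 0 and 49.04 and 50.1 against 125 and 134 CPM on day 3. LOC111878539 had 34.3 and 32.8 CPM in CL against 106 and 119 CPM in PC on day 0 and 34.02 and 38.3 against 65.5 and 72.01 CPM on day 3. LOC111881608 had 2.95 and 6.61 CPM in CL against 103 and 149.6 CPM in PC on day 0 and 3.75 and 1.97 against 23.6 and 26.1 CPM on day 3. CL and PC libraries did not overlap on either day in these 3 protein-coding genes, as on day 0 in 73.4% of all tested genes. The day 0 log2 fold changes were -2.32 (adjusted p = 0.000102), -1.74 (adjusted p = 3.78e-05) and -4.73 (adjusted p = 0.00015), and that of LOC111881608 was -5.42 without CL replicate 2. LOC111921163 and GeneID_111886954, at 0 counts in all 4 PC libraries, belong to the genes higher in CL on both days: GeneID_111886954 had 23.2 and 37.7 CPM in CL on day 0 and 24.7 and 28.7 CPM on day 3.

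Genes that differed on both days often had another such gene nearby in the gene order. Of the 184, 154 have a place in the order of the Lsat_Salinas_v11 assembly's gene table, counted among the 20935 tested genes with a place. A further gene of the set lay within 10 places of 64 of the 154 (41.6%), whereas 2328 of all placed genes (11.1%) had 1 within 10 places. Among all day 0 calls neighbours resembled each other only a little. The gene after 1 that was higher in CL was itself higher in 28.1% of cases, against 21.85% after 1 that was lower, and the gene after a lower gene was lower in 25.2%, against 20.6% after a higher one. The sources used here give neither the genome build nor the strand setting of the counting, so reads of overlapping or antisense neighbours cannot be told apart, and no coordinates are given.

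There were 5 stretches with at least 4 of these genes and no gap of more than 10 places between them, holding 25 genes in all. In stretch 2 the 4 genes were consecutive among the tested genes. The lncRNA LOC111883318 had 1.93 and 0.488 CPM in CL and 0 counts in PC on day 0, the protein-coding LOC111883319 23.5 and 47.01 CPM in CL and 0 counts in PC, and the pseudogene LOC111883305 2.05 and 1.44 CPM in CL against 0.232 and 0.193 CPM in PC. LOC111912636, a lncRNA whose GeneID stands on several rows of the deposited tables, went the other way, with 0 counts in CL and 4.91 and 4.55 CPM in PC. LOC111883319 had a CL level at least 498-fold that of PC on day 0 and at least 250.2-fold on day 3, and TG had 20.1 and 21.2 CPM of it on day 0. LOC111883318 was at least 17.1-fold higher on day 0, a fitted log2 fold change of 8.80 that was 7.50 without CL replicate 1 and 9.50 without CL replicate 2.

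In stretch 5 the 6 members, within 26 places, were all higher in CL than in PC. Other tested genes between them could go the other way, as LOC111879811 did with a fitted log2 fold change of -4.19 on day 0. LOC111881685, the most abundant member of stretch 5, had 2803 and 823 CPM in CL against 0.0927 and 0.241 CPM in PC on day 0, and 477 and 528 CPM in CL against 75.6 and 64.7 CPM in PC on day 3. Its CL libraries were uneven on day 0, and the log2 fold change of 13.39 was 12.25 without CL replicate 1, 14.02 without CL replicate 2 and 14.21 without PC replicate 2. LOC111879802 had 114 and 125 CPM in CL against 7.67 and 4.31 CPM in PC on day 0, and LOC111879799 21.9 and 17.8 CPM in CL against 1.67 and 1.40 CPM in PC, with replicates close together. The other 3 members, LOC111879803, LOC111879795 and LOC111881622, stood at 2.13 CPM or less in CL on day 0. Among them, LOC111879795 lost its call without CL replicate 2 (adjusted p = 0.0735), PC replicate 1 (0.0608) or PC replicate 2 (0.0729), and with no filter on low counts (0.0671). LOC111881622 had a day 0 log2 fold change of 4.51 that was 8.70 without PC replicate 1 and 3.56 without PC replicate 2. That of LOC111879803, 9.10, was 8.32 without CL replicate 1. On day 3 LOC111879795 was far from the floor, with 160 and 173 CPM in CL against 1.64 and 1.04 CPM in PC (adjusted p = 0.00279).

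In stretch 1 the 4 members, within 7 places, were also all higher in CL than in PC. LOC111896414 between them had a fitted log2 fold change of -2.5 on day 0. LOC111896404 had 96.9 and 78.8 CPM in CL against 7.60 and 7.51 CPM in PC on day 0, and the pseudogene LOC111896444 17.8 and 17.03 CPM in CL against 4.15 and 5.37 CPM in PC. LOC111909424 and the lncRNA LOC111911528 had 0 counts in PC on both days and at most 3.96 CPM in CL, and the log2 fold change of LOC111909424 was 10.03 with both CL libraries and 9.32 without CL replicate 1. Stretches 3 and 4 mixed directions, with 3 genes higher and 2 lower of 5, and 3 higher and 3 lower of 6. LOC111891093 and LOC111878188, the lncRNAs found in PC and not in CL on day 0, lay in them. In stretch 3, LOC111911650 had 1.06 and 0.517 CPM in CL against 10.5 and 9.92 CPM in PC (log2 fold change -3.67, or -4.30 without CL replicate 1). The pseudogene LOC111885247 of stretch 4 had 0 and 0.115 CPM in CL against 23.1 and 24.8 CPM in PC. Its fitted log2 fold change was -8.74, and -7.67 without CL replicate 1 or -13.13 without CL replicate 2, the library that holds its CL counts.

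**Figure D5:**
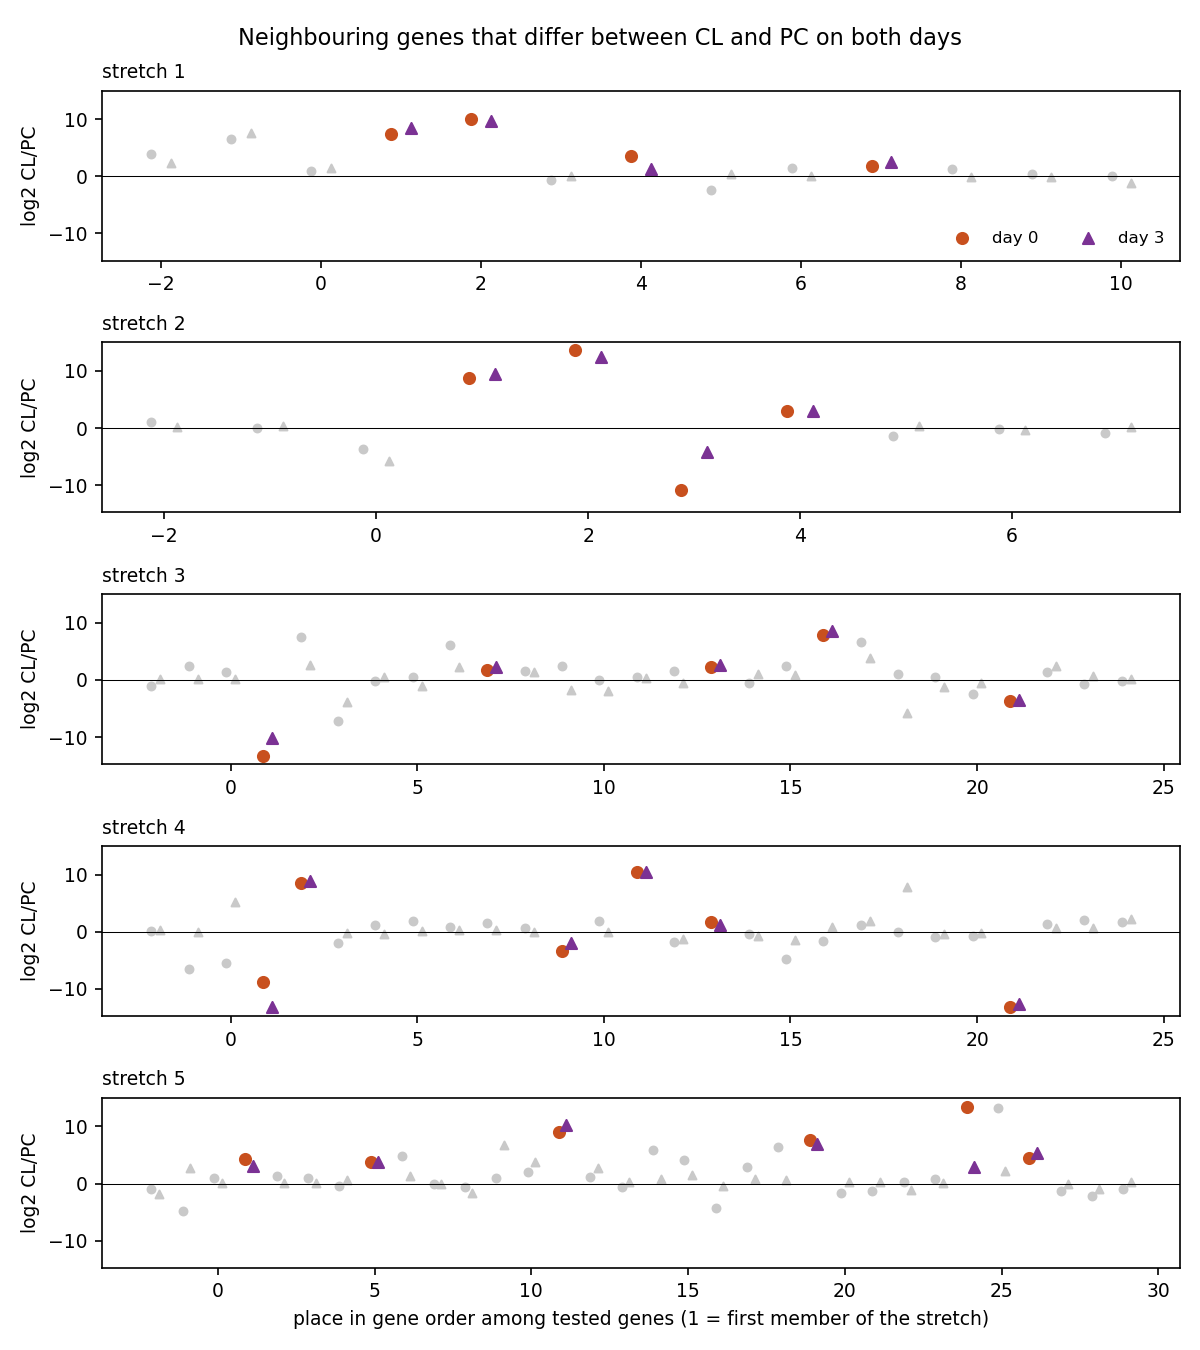
The 5 panels show the 5 stretches, with the log2 fold change of CL against PC (y axis) on day 0 (circles) and day 3 (triangles) for each tested gene in its place in the gene order (x axis, counted from the first member). Coloured symbols are the 25 genes past the threshold on both days and grey symbols are their neighbours. All members of stretches 1 and 5 are higher in CL than in PC. In stretch 2 the 4 members are consecutive and 1 of them is lower in CL.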

How the data were processed

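Per the labels' protocols, column-purified midrib RNA was read from both ends on an Illumina HiSeq3000. The authors deposited counts per GeneID. The submitters' processing notes name STAR 2.4.0i, featureCounts, Trim Galore, FastQC, DESeq2 and R 3.6.1. The sources used here do not give the genome build, annotation or strand setting. Each table has 64021 rows with 46150 GeneIDs, of which 7574 stood on several rows and were summed; they held 0.430% to 0.625% of the counts. Even numbers made up 68.4% to 74.65% of the values from 100 upwards, and halved counts were tried as an alternative. Counts per library ran from 35603537 to 59153901.

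The authors' deposited day 2 columns were taken as a score and not used, because 100% of their rows with a mean of at least 100 lay within 5% of the average of day 0 and day 3 for that cultivar and replicate number.

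With R 4.3.3 and edgeR 4.0.16, genes were filtered with filterByExpr, libraries scaled by TMM, and a robust quasi-likelihood model with 6 group means fitted to the 12 day 0 and day 3 libraries, with Benjamini-Hochberg adjustment over all genes at 0.05. The steps were also run on simulated counts in which few genes changed. That run cannot judge the scaling or the shared spread where many genes differ, as they do here. SE is the log2 fold change over the root of its F value. A group at 0 counts was set to a floor of 3 counts per library. Floors and 95% intervals take counts as independent, which would not hold if counts come in pairs. Replicates differed by more than sampling noise (chi-square per degree of freedom, on halved counts, 68.1 in CL and 61.0 in PC on day 0). On day 3 the values were 11.9 in CL and 23 in PC. Names came from the NCBI table of assembly Lsat_Salinas_v11, which held 40695 of the GeneIDs and no descriptions, so gene lists and cell type markers chosen by description, and named genes that depend on them, were not analysed here. Named genes are the 6 with the largest fitted fold change in each direction (at least 2-fold, libraries not overlapping, at least 20 CPM in the higher cultivar), the 5 most abundant at least 2-fold different in each direction, genes that earlier work named, and others said to be chosen by value. The comparison and all lists were chosen with earlier results of these data known. Alternatives were another scaling, no filter, DESeq2 1.42.0, fits of fewer groups, the replicate block, GeneIDs on several rows left out, halved counts and leaving out each library.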

Additional observations from a re-analysis of the deposited data

Results flagged for a closer look

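The contrast of CL against PC differed between day 0 and day 3, by a test of the difference itself, at 5188 genes, and at 12 of the genes taken by fold change, by level or from earlier work (edgeR quasi-likelihood test, Benjamini-Hochberg). Genes taken by fold change or by level were chosen on day 0 values, which favours a larger contrast on day 0. For the abundant genes higher in CL, the log2 fold change on day 0 exceeded that on day 3 by 3.42 in LOC111903698, by 5.24 in LOC111921786, by 2.56 in LOC111909425 and by 1.91 in LOC111877125. For the abundant genes lower in CL, day 0 minus day 3 was -1.46 in LOC111885899, -1.12 in LOC111912961 and -1.18 in LOC111884674. LOC111912961 stood at 3219 and 2909.7 CPM in CL against 4466 and 5214 CPM in PC on day 3, and LOC111885899 at 1958 and 1886 CPM in CL against 1505 and 1706 CPM in PC, with the CL libraries of LOC111885899 above those of PC.

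Among the genes ranked first by fitted day 0 fold change, the fitted difference was 12.14 in LOC111919497, 13.77 in LOC111908135 and 10.62 in LOC111914601, where PC had 0 counts on day 0 and the fitted size depends on the prior count. On day 3 LOC111919497 had 25.3 and 33.02 CPM in CL against 2.07 and 1.88 CPM in PC, and LOC111914601 had 1.41 and 1.13 CPM in CL against 0.0713 and 0.193 CPM in PC. The difference was -8.10 in LOC111907804, which had 0.687 and 0.732 CPM in CL against 1.68 and 2.65 CPM in PC on day 3, and -7.50 in LOC111893813.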

How the results depend on the processing

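The day 0 count of 9954 genes stayed within 1.5 times under every alternative run, from 6777 without PC replicate 2 to 10954 without a scaling factor, whose split of 3103 higher and 7851 lower is given above. It was 7321 in a fit of the CL and PC day 0 groups alone and 10919 with DESeq2. The day 3 count of 199 was 677 with DESeq2, 2128 in a fit of its 2 groups and 60 to 75 without any 1 of its libraries. The count on both days, 184, was 533 with DESeq2 and 58 to 266 without any 1 library, the low values without a day 3 library. The difference between days, 5188 genes, was 2330 to 5956 without any 1 library. The cause of these changes was not tested, beyond the smaller number of libraries in some fits. Of the 66 genes fitted under 13 alternatives, 57 stayed past the threshold in each that held them (the fit without GeneIDs on several rows lacks LOC111912636), 9 lost it in at least 1 and 0 reversed direction.

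Same-numbered CL and PC day 0 libraries did not deviate together (correlation across genes -0.0736), so the numbers are not taken as pairs. With the replicate block the counts were 9557 on day 0, 173 on day 3, 158 on both days and 4877 for the difference. Counts of gene lists under the alternatives were not run, as the lists could not be applied. Depth limits the genes at 0 counts, whose fold changes are bounds, and 2 libraries a group limit all tests.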
